A study of Mus musculus with 148 samples.

Results

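The genes described here are 34 targets of type I interferon, followed through the immune cells of the lung and of the primary tumor in a mouse model of breast cancer metastasis. They were chosen by name, with earlier results of these data known but by no threshold on a value, and are 34 of the 52542 gene rows of the count tables, 36357 of which held at least 1 transcript in an immune cell. Each of the 34 was detected, with 774 transcripts for Ifi44 at the low end and 25610 for Samhd1 at the high end. A transcript is counted once through its unique molecular identifier (UMI), whatever its number of reads.

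Type I interferons bind the receptor pair Ifnar1 and Ifnar2, whose kinases Jak1 and Tyk2 phosphorylate Stat2. Together with Irf9 it takes part in a complex that binds interferon-stimulated response elements in the promoters of target genes and starts their transcription. The proteins made in this way sense viral nucleic acid, block steps of viral replication, or feed back on the pathway. Most nucleated cells carry the receptor, so that the response can be read in leukocytes of many lineages.

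By known role the 34 genes fell into 6 groups. Ddx58, Ifih1, Dhx58, Zbp1 and Ifi204 encode sensors of viral nucleic acid. Irf7 and Stat2 encode transcription factors of the pathway. Isg15, a ubiquitin-like modifier, Usp18, which removes it and dampens receptor signalling, and Herc6, which attaches it, form a group of their own. Oas1a, Oas2, Oas3, Oasl1 and Oasl2 belong to the oligoadenylate synthetase family. Rsad2 (viperin), Cmpk2, Mx1, Eif2ak2, Samhd1, Bst2 (tetherin), Isg20, Trim30a and Ifi47 are grouped as acting directly on viruses or on infected cells. Whether each makes a working protein in this mouse strain was not examined. The remaining 10, Rtp4, Parp14, Rnf213, Sp100, Phf11d, Slfn5, Xaf1, Ifi44, Ifi35 and Lgals3bp, are chaperones, ligases, nuclear proteins and others. Oas1a, Ifi204, Trim30a, Phf11d and Ifi47 have close paralogs, and reads that could not be placed uniquely were discarded, so their levels are uncertain.

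Cells came from female PA-GFP mice of the C57BL/6 strain, which carry a GFP that is switched on by light, so that cells of a chosen niche can be labelled and sorted. EO771-tdTomato cells, a single mouse mammary carcinoma line with a red reporter, were injected into the mammary gland at 8 weeks of age and the tumors were resected 3 weeks later. Single cells were sorted into wells and their mRNA 3' ends were counted. The 63 samples, each the cells of 1 mouse and 1 tissue, came from 27 mice. Control lungs (3 mice) came from PA-GFP mice without a tumor. Pre-MET lungs (3 mice) came from tumor-bearing mice before resection, and 3 of the 4 primary tumors came from those same mice. Relapse-free lungs (6 mice) came from resected mice without metastasis. Mice that relapsed gave lung sections with a metastasis (Metastasis, 13 mice), sections away from it (Distal normal, 14 mice), and the photoactivated metastasis core (13 mice) and invasive margin (7 mice). Most samples were sorted as CD31- CD45+ cells, while core and margin cells were sorted as CD31- GFP+ cells, which need not be leukocytes; the core of mouse 17 was in addition gated on CD45. Relapse-free mice 6 and 7 were sorted through several GFP gates, which were pooled.

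The 148 plates held 56832 wells, of which 23425 carried an annotated immune cell with at least 500 UMIs (median 1133), and no well was shared between plates. Counts were summed over the cells of a mouse, tissue and lineage, or of a mouse, tissue and annotated subpopulation, wherever at least 10 cells were present. Lineage sums held between 7326 and 1125282 UMIs. A level is given in CPM (counts scaled to a common total of UMIs per sum), and the level of all members together as their summed CPM. The module score, the mean of log2(CPM + 1) over the 34 genes, falls when a sum is small because undetected genes count as 0, so that summed CPM is given first. Summed CPM in turn gives most weight to abundant members. Rtp4 held 15.6% of the members' UMIs in neutrophils, and Samhd1 12.4% in monocytes and 16.7% in B cells. Control lungs were all sequenced in a batch that held no other group, and the effect of that batch and of the tumor cannot be told apart. Each mouse is 1 replicate. Markers of each sum's own lineage were present in all sums, lowest in dendritic cells (DCs, 133 CPM over 6 markers). Markers of neutrophils were also found in other lineages, up to 6835 CPM in a monocyte sum, and their part in the values below was not tested.

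Promoters of 26 members, from 250 bases upstream to 50 bases downstream of the start site, were read from RefSeq (GRCm38.p6). The core of the interferon-stimulated response element, GAAANNGAAA on either strand, was found in 11 of these 26 genes (42.3%) and in 3.99% of the 27025 genes of the table. The gamma-activated site TTCNNNGAA was found in 6 of 26 (23.1%) and in 9.55% of all genes. The 11 genes were Ifih1, Ddx58, Isg15, Oas3, Oas1a, Trim30a, Bst2, Stat2, Slfn5, Rsad2 and Eif2ak2, and 10 of the 16 matches lay within 150 bases upstream of the start. No promoter was at hand for Oas2, Mx1, Usp18, Ifi204, Dhx58, Zbp1, Rtp4 and Parp14. The promoters of 3 genes that differed between metastasis and distal normal lung are shown, with matches to the element core in capitals; Isg15 lies at chr4:156200769-156201068, Rsad2 at chr12:26456403-26456702 and Bst2 at chr8:71537423-71537722, each on the minus strand and printed along the gene.
Isg15: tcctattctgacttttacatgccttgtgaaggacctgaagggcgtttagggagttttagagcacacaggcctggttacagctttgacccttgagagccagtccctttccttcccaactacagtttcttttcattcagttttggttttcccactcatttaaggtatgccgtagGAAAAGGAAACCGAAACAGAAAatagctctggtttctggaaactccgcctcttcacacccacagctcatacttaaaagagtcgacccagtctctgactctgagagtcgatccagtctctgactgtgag
Rsad2: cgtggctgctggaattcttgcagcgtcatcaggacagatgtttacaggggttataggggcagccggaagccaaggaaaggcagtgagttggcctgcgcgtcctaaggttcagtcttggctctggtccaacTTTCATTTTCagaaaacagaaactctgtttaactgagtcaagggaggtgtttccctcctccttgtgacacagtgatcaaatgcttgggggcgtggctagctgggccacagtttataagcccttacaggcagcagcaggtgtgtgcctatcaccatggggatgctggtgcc
Bst2: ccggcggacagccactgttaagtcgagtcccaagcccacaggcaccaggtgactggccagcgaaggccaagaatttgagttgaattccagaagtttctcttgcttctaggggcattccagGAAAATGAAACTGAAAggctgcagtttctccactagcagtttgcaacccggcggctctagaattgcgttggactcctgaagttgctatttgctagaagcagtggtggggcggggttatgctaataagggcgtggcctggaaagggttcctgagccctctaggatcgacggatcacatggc
Isg15 carried 3 overlapping matches that started at positions -78, -72 and -66 from the start site. Bst2 carried 2, at -130 and -124, and Rsad2 carried 1 on the opposite strand, at -120. Isg20, Irf7, Ifi47 and Herc6 had no match to these letters in the window. A match is a description of the sequence only.

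Across lineages, the members together had their highest medians in neutrophils and monocytes, over all tissues pooled and in each of the 8 tissues. The median summed CPM was 7258 in neutrophils (42 sums, range 2644 to 26222) and 5769 in monocytes (62 sums, 3379 to 16752). Macrophages followed at 3915 (40 sums), DCs at 3579 (36 sums), T cells at 2820 (61 sums), B cells at 2286 (30 sums) and NK cells at 1798 (45 sums). Ranges overlapped for all 6 pairs of neighbours in this order, so that the order is one of medians only. Lineages drew on different tissues, and the lower part of the order turned between them. Macrophages had the lowest median in control lung (758 CPM, beside 1790 in NK cells and 2244 in T cells), in distal normal lung (1499 CPM) and in relapse-free lung (740 CPM), while in cores they were at 6535 CPM, beside 2688 in NK cells and 3313 in T cells. Lineage and subpopulation labels came from a clustering of expression in the same cells, which may have used these genes, and the levels across them are therefore a description without a test.

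The lineages differed in which members they carried. Of the 34 genes, 14 had their highest median CPM in monocytes and 13 in neutrophils. Rtp4, a chaperone of receptors at the cell surface, had a median of 1170 CPM in neutrophils, where its lowest sum held 226 CPM, against 270 in monocytes and 46.4 in NK cells. Oasl2 showed the same pattern, with 670 CPM in neutrophils and 124 CPM in monocytes, and was at 0 in 28 of 45 NK sums. Bst2, which tethers budding virions to the membrane, ran the other way. It was highest in DCs, with a median of 338 CPM, and lowest in neutrophils, with 10.6 CPM and 19 of 42 sums at 0. Lgals3bp, a secreted glycoprotein, was at 0 in 25 of 42 neutrophil sums and was highest in macrophages, at 192 CPM.

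Lymphocytes carried a smaller part of the list. Ifi47, an interferon-inducible GTPase, was highest in T cells at a median of 231 CPM, near its 206 CPM in NK cells and 194 CPM in monocytes. Sp100, a nuclear body protein, was at 224 CPM in both B cells and NK cells. In contrast, Ifi204 was at 354 CPM in monocytes, 6.45 CPM in T cells and 0 in B cells and NK cells by the median. Slfn5 was at 517 CPM in monocytes and at 0 in 23 of 45 NK sums. Ifi44 was at 0 by the median in all 7 lineages.

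Among the 26 annotated subpopulations with at least 3 sums, the median summed CPM ran from 694 in Mac_Cd9 macrophages to 14563 in Neut_PMN-MDSC cells, as the plot by subpopulation shows. The latter rested on 5 sums that ranged from 1446 to 25769. Mon_Thbs1 monocytes were next at 10232 (25 sums), with Neut_Ptgs2 at 8335 (29 sums), Neut_Ifit3 at 7600 (16 sums) and Mac_Isg20 at 7482 (15 sums). In the middle stood DC_cDC2 at 6204, T_Treg at 6066, Neut_Lcn2 at 5930 and Mon_Fn1 at 5698. T_CD4_Lef1 cells were at 2473 (46 sums), NK_Ncr1 cells at 1675 (40 sums) and DC_cDC1 at 1268 (5 sums). Each of the 25 neighbouring pairs overlapped in range. Subpopulations drew on different tissues, and these medians are pooled over them. T_Treg cells, for example, were 0.142% of T cells in control lung and 21.5% in primary tumors by the mean. Within a lineage the spread was wide. Mac_Cd9 sums held 435 to 994 CPM and Mac_Isg20 sums 1833 to 17344, without overlap. DC_cDC1 sums held 894 to 4160 CPM and DC_cDC2 sums 1900 to 10489. Neut_Camp cells, at 1008 to 2729 CPM in 4 sums, were below every Neut_Lcn2, Neut_Ifit3 and Neut_Ptgs2 sum.

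**Figure D1:**
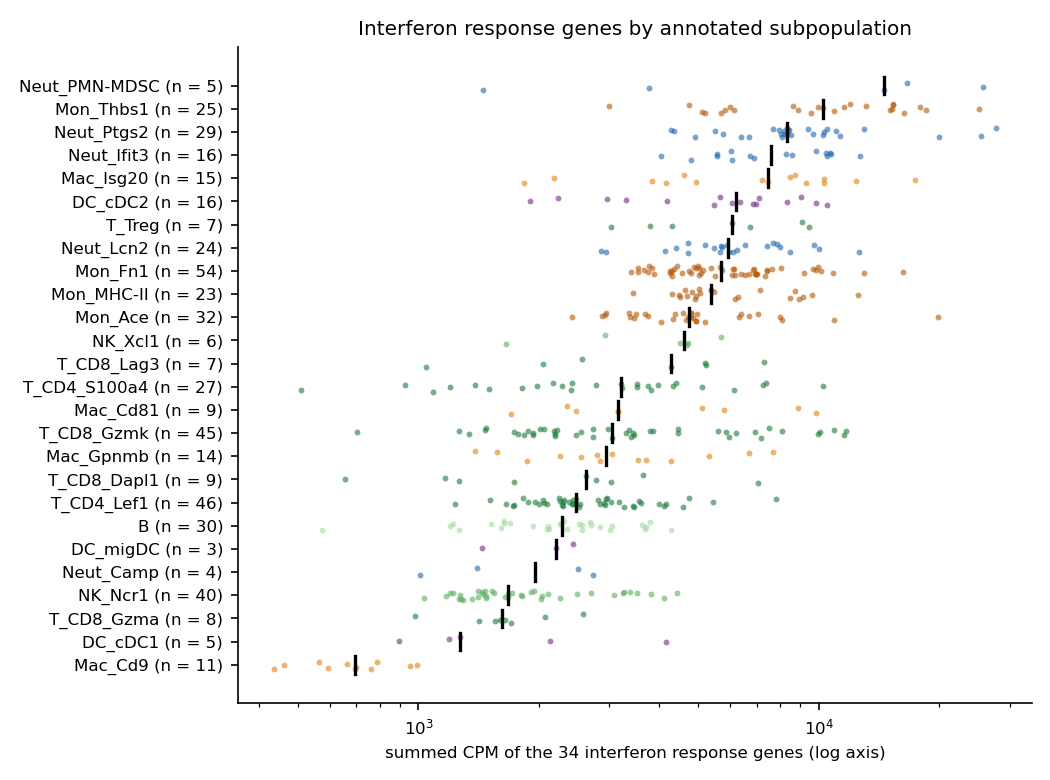
Summed CPM of the 34 interferon response genes (x axis, log scale) in each annotated subpopulation (y axis, n sums); each point is 1 mouse and tissue with at least 10 cells and the black bar is the median. Mac_Cd9 macrophages sit lowest, between 435 and 994 CPM, and Neut_PMN-MDSC and Mon_Thbs1 cells have the highest medians, 14563 and 10232 CPM.

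Single members peaked in different subpopulations, by medians pooled over tissues. Mon_Thbs1 monocytes had the highest median of 11 members, with Irf7, the factor that amplifies interferon production, at 725 CPM and Zbp1, a sensor of Z-form nucleic acid, at 509 CPM. Neut_PMN-MDSC cells led for 6 members, with Rsad2 at 2597 CPM and Isg15 at 667 CPM. Isg20, an exonuclease, was highest in T_Treg cells at 985 CPM. Bst2 was highest in DC_cDC2 at 422 CPM and at 0 by the median in Neut_Ifit3. Rtp4 was at 1232 CPM in Neut_Lcn2 and at 1207 CPM in Neut_Ifit3. Samhd1, a dNTP hydrolase, was highest in Mon_Ace monocytes at 1080 CPM and present in all 62 monocyte sums, the lowest of which held 445 CPM.

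Of the 7 interferon genes looked up almost nothing was captured. Other interferon genes were not looked up. Reads that could not be placed uniquely were discarded here too, and how far this bears on each of the 7 genes was not examined. These counts do not show whether interferons were made. Over all lineage sums, Ifnb1 gave 2 UMIs, Ifna2 1 UMI and Ifng 4 UMIs, and Ifna1, Ifna4, Ifna5 and Ifnl2 gave 0. The receptor chains Ifnar1 (2868 UMIs) and Ifnar2 (1926 UMIs) were detected in 236 and 200 of the 316 lineage sums. Irf9 gave 5487 UMIs with the highest mean in neutrophils, at 187 CPM.

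By tissue, all lineages but B cells had their highest mean summed CPM in the primary tumor or the metastasis core. Macrophages had 820 ± 168 CPM in control lung (SD, n = 3) and 889 ± 333 in relapse-free lung (n = 4), against 5631 ± 4301 in metastasis sections (n = 9), 6397 ± 2759 in cores (n = 10) and 7139 ± 2402 in primary tumors (n = 4). No macrophage sum of control lung (691 to 1010 CPM) reached the lowest sum of metastasis sections (2266 CPM). The macrophages of these tissues were different annotated cells. Mac_Cd9 cells were 92.6% of macrophages in control lung by the mean, 7.64% in metastasis sections, 0.484% in cores and 1.09% in primary tumors, Mac_Isg20 cells 0, 39.2, 56.4 and 14.6%, and Mac_Cd81 cells 7.42, 19.6, 19.7 and 80.9%, and the part of this makeup was not tested. T cells had 1812 to 2443 CPM in control lung (3 mice), 2139 ± 28.4 (SD) in Pre-MET lung (n = 3), 2260 ± 812 in distal normal lung (n = 13), 3926 ± 1810 in cores (n = 13) and 5999 ± 793 in primary tumors (n = 4). Neutrophils had 7769 ± 3440 CPM in control lung (n = 3), 7018 ± 2044 in metastasis sections (n = 9) and 11119 ± 5712 in cores (n = 6), with overlapping ranges. The 2 primary tumors with enough neutrophils held 12351 and 26222 CPM. Neut_PMN-MDSC cells, the neutrophils with the highest members' level, were 0% of neutrophils in control lung by the mean, 3.36% in metastasis sections, 19.99% in cores and 23.1% in primary tumors, and the part of this in the neutrophil values was not tested. The plot by lineage and tissue gives all sums.

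**Figure D2:**
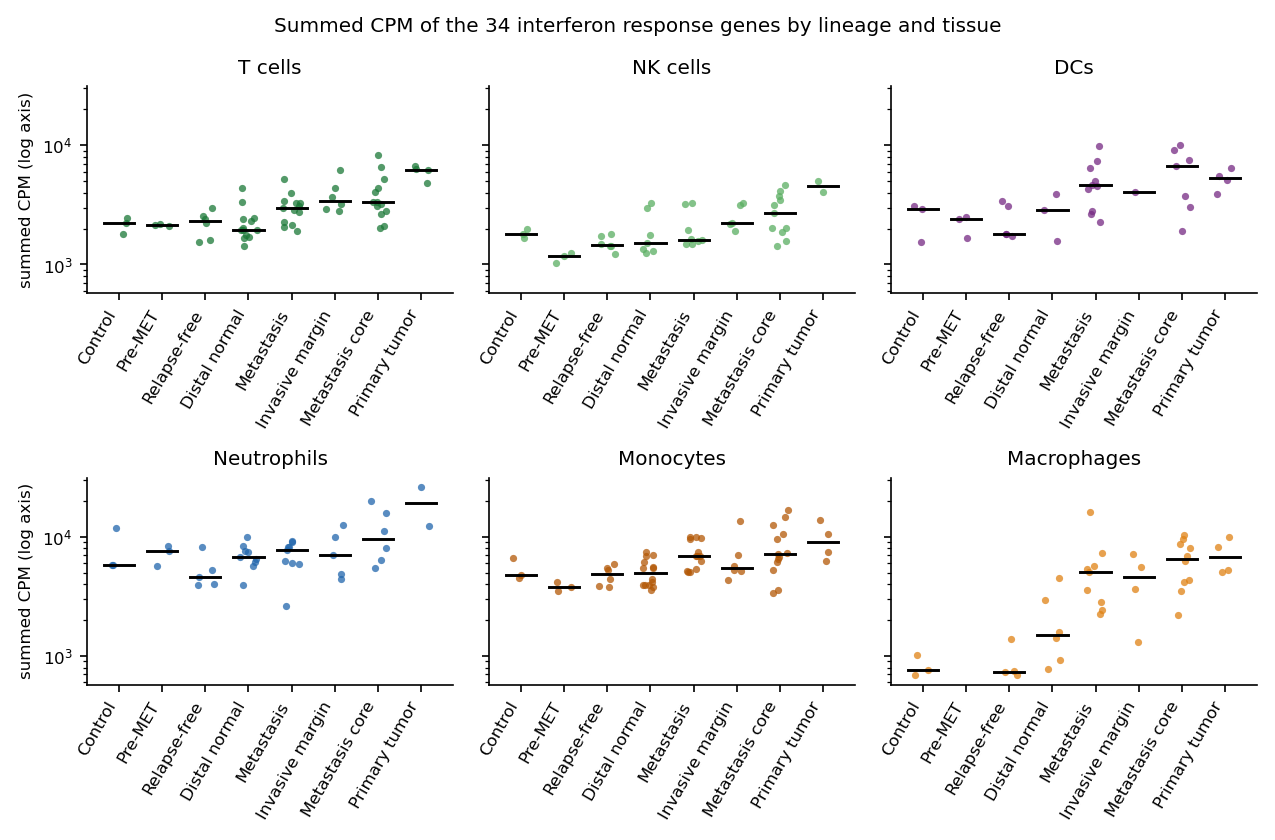
Summed CPM of the 34 genes (y axes, log scale, shared) by tissue (x axes) in 6 lineages; each point is 1 mouse and the black bar is the median. Macrophages run from 691 to 1010 CPM in control lung to 5069 to 9979 CPM in primary tumors, and neutrophils overlap between control lung and metastasis.

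The first comparison asked what differed between lung with a metastasis and distal normal lung of the same mouse. In monocytes of 13 mice, 33 members could be tested and 10 rose in the metastasis, none fell. A gene was called when the edgeR quasi-likelihood test with mouse as a block gave a Benjamini-Hochberg adjusted p below 0.05 over all genes tested. Over the 4704 genes tested, 2.87% were called higher and 3.1% in either direction. All 33 estimates were positive, with a median log2 fold change of 0.64 and near 0 over all genes. Ifi44 was below the filter on low counts. Members' summed CPM went from 4973 ± 1267 to 7264 ± 1963 (SD, n = 13) and was higher in 11 of 13 mice, mice 27 and 34 being the exceptions, and the module score went from 5.95 ± 0.48 to 6.92 ± 0.67.

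Isg20 gave the smallest adjusted p. Its level in distal normal lung ran from 0 to 148 CPM with a median of 58.9 (14 mice), and in metastasis from 0 to 719 CPM with a median of 151 (13 mice). The groups overlapped, and 12 of the 13 paired mice were higher in metastasis. The log2 fold change of Isg20 was 1.97 ± 0.28 (SE), with an adjusted p of 1.93e-07. Isg15 ran from 0 to 611 CPM (median 62.6) in distal normal lung and from 33.0 to 1084 CPM (median 291) in metastasis, and rose in 12 of 13 mice by 1.64 ± 0.27 on the log2 scale (adjusted p = 5.41e-06). Rsad2, which makes a chain-terminating nucleotide, went from a median of 46.1 to 182 CPM, with a log2 fold change of 1.99 ± 0.35 (adjusted p = 2.22e-05) and 11 of 13 mice higher. Usp18 was higher in 13 of 13 mice, with medians of 28.0 and 95.9 CPM and a log2 fold change of 1.73 ± 0.34 (adjusted p = 1.44e-04). Each of the 3 members of the modifier group was called, since Herc6 rose too, by 1.27 ± 0.36 (adjusted p = 0.0251).

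The other called members changed less. Zbp1 rose by 0.89 ± 0.21 on the log2 scale (adjusted p = 2.94e-03), Ifi47 by 0.89 ± 0.22 (7.61e-03), Ifi204 by 0.75 ± 0.19 (7.61e-03), Irf7 by 0.83 ± 0.21 (9.10e-03) and Bst2 by 0.76 ± 0.23 (0.0355). DESeq2 called 11 members, without Bst2 (adjusted p = 0.0568) and with Parp14 (0.0466) and Ifi35 (0.0382). The share of all genes called by DESeq2 was not counted. Rtp4 missed the threshold, at 0.66 ± 0.20 (adjusted p = 0.0581). Of the sensors, 2 of 5 were called, of the direct effectors 4 of 9, of the transcription factors 1 of 2, and of the 5 oligoadenylate synthetases and of the 9 tested genes of the mixed group none. Samhd1 and Sp100 were near no change, at 0.03 and 0.05. Of 36 genes listed for the pathway, which include Usp18 and Stat2, 24 were tested, 2 rose and 0 fell. Beside Usp18 this was Socs3, an inhibitor of cytokine signalling, at 0.99 ± 0.25 (adjusted p = 9.63e-03).

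**Figure D3:**
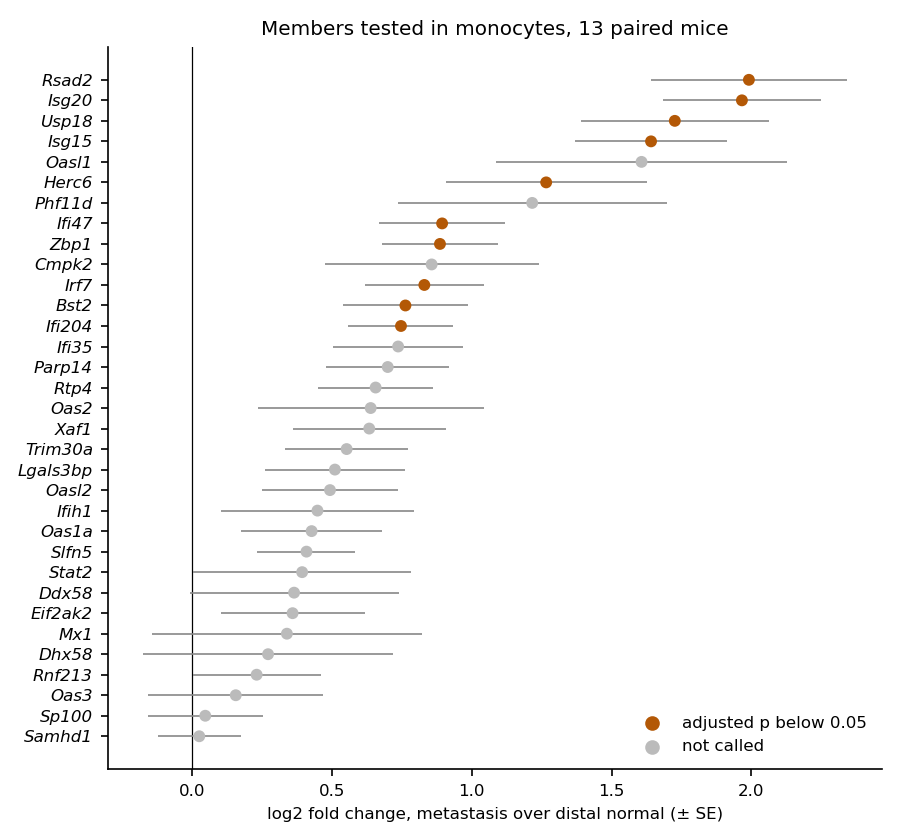
Log2 fold change between metastasis and distal normal lung (x axis, bars ± SE) of the 33 members tested in monocytes of 13 paired mice (y axis). The 10 called members are colored; all estimates lie above 0, from 0.03 for Samhd1 to 1.99 for Rsad2.

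The makeup of the monocytes moved with these values. Mon_Thbs1 cells, the monocytes with the highest members' level, were 5.34 ± 4.96% of monocytes in distal normal lung and 25.5 ± 18.8% in metastasis (SD, n = 13), higher in 11 of 13 mice. Mon_Fn1 cells went from 67.6 to 51.4% and Mon_Ace cells from 19.8 to 13.6%. Within Mon_Fn1 cells of 12 mice, 26 members were tested and edgeR called 0, DESeq2 0, with 1, Ifi35 at 0.57 ± 0.27, at an unadjusted p below 0.05; 0.0299% of all genes tested were called there. Their median log2 fold change was 0.31, with Usp18 at 0.93 ± 0.51, Isg20 at 0.87 ± 0.46, Isg15 at 0.52 ± 0.41, Bst2 at 0.50 ± 0.25, Zbp1 at 0.47 ± 0.25, Irf7 at 0.32 ± 0.26 and Rtp4 at -0.02 ± 0.25. Within Mon_Ace cells of 4 mice, 9 members were tested and 0 called by edgeR or DESeq2, 1, Slfn5 at 2.45 ± 0.65 (adjusted p = 0.090), at an unadjusted p below 0.05, against 0.103% of all genes, with Rtp4 at 1.91 ± 1.09, Irf7 at -0.28 ± 0.61 and Zbp1 at -0.68 ± 0.81. At an unadjusted p below 0.05 stood 3.71% of all genes in Mon_Fn1 cells and 3.41% in Mon_Ace cells. The labels came from a clustering of expression that may have used these genes, so that monocytes high in members may carry another label. A small difference within a label may thus be set in part by the labels, and no conclusion is drawn from it. The part of the makeup in the monocyte values was not tested. The count of 10 rested in part on single mice and on the block. It was 6 without mouse 28 and 6 without mouse 37, and 2 (Isg15 and Isg20) without the mouse block; with 9 mice whose plates of both tissues shared a batch it was 7.

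In macrophages of the 5 mice with both tissues, 13 members were tested and 5 rose, none fell, where 8.75% of the genes tested were called higher and 12% in either direction. A member that passed the filter through the metastasis sums alone, such as Isg20 and Slfn5 among these 5, could not be called lower. The direction of the calls is thus in part set by the filter. The summed CPM went from 1532 ± 856 to 4609 ± 2199 (SD, n = 5), higher in 5 of 5 mice. Isg20 was at 0 CPM in each distal normal sum and at 201, 75.2, 268, 34.7 and 363 CPM in the metastases of mice 23, 26, 28, 30 and 33. With the UMIs of the 5 mice pooled, and against a floor of 3 counts over the 99499 UMIs of the distal normal sums (30.2 CPM), Isg20 was at least 6.43-fold higher in metastasis. That bound is one for the pool and not for each mouse, as mouse 30 was at 34.7 CPM. Isg20 passed the filter on low counts through the metastasis sums alone and could be called only as higher. Its adjusted p of 2.09e-03 is therefore no separate support. Slfn5 was at 170, 0, 70.6, 0 and 0 CPM in distal normal lung and at 355, 204, 496, 127 and 348 CPM in metastasis, in the same order of mice. Those groups overlapped only through the distal normal sum of mouse 23. Slfn5 had a log2 fold change of 2.95 ± 0.74 (adjusted p = 2.29e-03). Its distal normal sums were too low to pass the filter without the metastasis sums, so that this p too is no separate support. Rsad2 rose by 3.79 ± 0.97 (2.72e-03), Isg15 by 2.80 ± 0.81 (9.35e-03) and Rtp4 by 1.90 ± 0.63 (0.0282). Which tissue's sums carried Rsad2, Isg15 and Rtp4 past the filter was not examined. DESeq2 called 4 of the 5 members called by edgeR, without Rtp4 (adjusted p = 0.0726). Irf7 at 1.90 ± 0.81 (adjusted p = 0.121), Zbp1 at 1.17 ± 0.72 (0.356) and Bst2 at 0.89 ± 0.59 (0.408) did not pass. Of 6 pathway genes tested, Irf5 was called, at 1.43 ± 0.47 (adjusted p = 0.0295). The other 21 members were below the filter on low counts, which a member could pass through the metastasis sums alone.

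The macrophages of both tissues were largely different annotated cells. Mac_Cd9 macrophages, lowest in members, made up 70.3 ± 21.3% of macrophages in distal normal lung and 7.96 ± 6.72% in metastasis (SD, n = 5), lower in 5 of 5 mice, while Mac_Isg20 cells, whose name already holds a member, went from 6.63 to 40.6%. The summed level of 7 macrophage markers had a median of 13698 CPM in distal normal and 5478 CPM in metastasis sums, and 5 monocyte markers 689 and 1362 CPM. The part of these shifts in the macrophage values was not tested. The count of 5 fell to 3 without mouse 28, 2 without mouse 33, 2 without the mouse block, and 0 of 4 tested with only cells of at least 1000 UMIs.

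T cells, NK cells and neutrophils gave no call between metastasis and distal normal lung. B cells and DCs had too few mice with sums of both tissues and were not tested. In T cells of 12 mice only 4 members were abundant enough to test; edgeR and DESeq2 called 0 and 1 had an unadjusted p below 0.05, beside 0.466% of all genes called. That gene was Ifi47, at 0.77 ± 0.34 (adjusted p = 0.535). The summed CPM of T cells was higher in 11 of 12 mice, at 2168 ± 775 and 3011 ± 929 (SD, n = 12). The makeup of the T cells moved with it, from a mean of 0.146 to 4.41% for T_Treg (8 mice higher, 0 lower), from 2.64 to 10.6% for T_CD8_Lag3 (10 higher, 1 lower) and from 50.04 to 38.4% for T_CD4_Lef1, and its part was not tested. In neutrophils of 6 mice, 21 members were tested, 10 positive and 11 negative, and 0 were called by either tool (1, Ifi204 at 1.07 ± 0.49, at an unadjusted p below 0.05; 0.133% of all genes called). Isg15 was at 0.33 ± 0.40, Irf7 at -0.02 ± 0.42, Zbp1 at -0.45 ± 0.52 and Rtp4 at -0.05 ± 0.29. Neutrophil summed CPM was 6266 ± 1351 and 6633 ± 2248 (SD, n = 6), higher in 4 of 6 mice. Neut_Lcn2 cells went from a mean of 59.1 to 40.6% of neutrophils (lower in 6 of 6 mice). Neut_Ifit3 cells went from 8.05 to 17.8% (5 higher, 1 lower) and Neut_Ptgs2 cells from 30.4 to 35.6% (4 higher, 2 lower). The part of this makeup was not tested. In NK cells of 5 mice, 1 member was tested and 0 called by either tool (0 at an unadjusted p below 0.05; 0% of all genes), while the summed CPM was higher in 4 of 5 mice. The single subpopulations tested, T_CD4_Lef1, T_CD8_Gzmk, NK_Ncr1 and Neut_Lcn2, gave 0 calls among 2, 2, 0 and 12 members, 0 at an unadjusted p below 0.05 by edgeR and 0 by DESeq2, and 0% of all genes. In Neut_Lcn2 Isg15 was at 0.17 ± 0.67, Irf7 at 0.16 ± 0.66 and Rtp4 at -0.18 ± 0.36. At an unadjusted p below 0.05 stood 7.64% of all genes in T cells, 2.92% in neutrophils and 2.455% in NK cells. In the single subpopulations, in the order given, the share was 6.28, 3.83, 2.94 and 2.35%. The limit of the labels given for the monocytes holds for these subpopulations too.

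**Figure D4:**
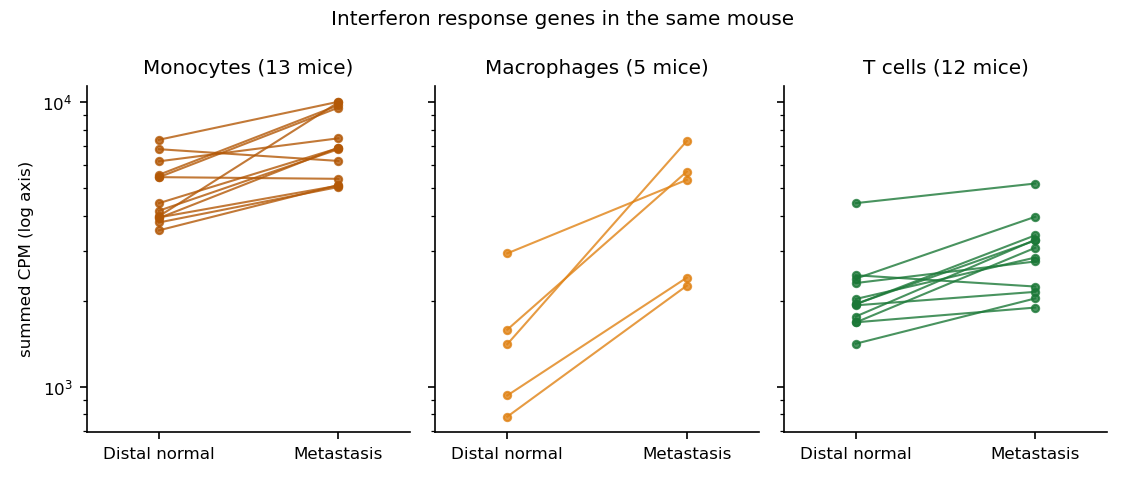
Summed CPM of the 34 genes (y axis, log scale) in distal normal lung and metastasis (x axis) of the same mouse, joined by a line, in 3 lineages. Of 13 mice 11 rise in monocytes, of 5 mice 5 in macrophages and of 12 mice 11 in T cells.

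Whether the change in monocytes was larger than in T cells was tested as an interaction. Of 24 members, 0 passed by edgeR or DESeq2, and 1, Isg15, had an unadjusted p below 0.05, at 1.38 ± 0.59 (adjusted p = 0.856), where 0.197% of all genes were called. The differences for Zbp1, Irf7, Bst2 and Rtp4 were 0.53 ± 0.45, 0.39 ± 0.58, 0.37 ± 0.44 and 0.26 ± 0.44. For neutrophils against T cells, 20 members gave 0 calls by either tool and 0 unadjusted p below 0.05, beside 0% of all genes, with Bst2 at 0.82 ± 1.05, Isg15 at 0.47 ± 0.74, Rtp4 at -0.33 ± 0.56, Irf7 at -0.50 ± 0.78 and Zbp1 at -0.57 ± 0.76. The calls in monocytes are thus not shown to be particular to them against T cells, and monocytes were not tested against neutrophils. An unadjusted p below 0.05 was found for 4.5% of all genes in the first of these tests and 2.76% in the second.

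The second comparison set Pre-MET lung, taken before resection, against control lung. In monocytes 28 members were tested and 2 fell, none rose, where 2.02% of genes were called lower and 4.32% in either direction. Rtp4 was at 287, 362 and 395 CPM in the 3 control mice and at 173, 92.6 and 201 CPM in the Pre-MET mice, without overlap, and fell by 1.19 ± 0.29 on the log2 scale (adjusted p = 0.0275). Isg20 was at 137, 230 and 118 CPM in control and at 68.4, 52.3 and 62.4 CPM in Pre-MET monocytes, also without overlap, and fell by 1.46 ± 0.38 (adjusted p = 0.0394). Bst2 at -0.89 ± 0.41 (adjusted p = 0.262), Irf7 at -0.54 ± 0.36 (0.471) and Zbp1 at -0.29 ± 0.28 (0.653) were not called, and Isg15 was below the filter. Summed CPM of the members was 5320 ± 1191 in control and 3832 ± 337 in Pre-MET monocytes (SD, n = 3). Rtp4 lost its call whichever mouse was left out, and the count was 0 for 5 of the 6 mice and 2, Isg20 among them, without control mouse 3; with only cells of at least 1000 UMIs it was 0. The makeup of the monocytes differed between these groups. Mon_Ace cells were 59.0 ± 4.14% of control and 22.6 ± 4.01% of Pre-MET monocytes, and Mon_Fn1 cells 23.8 ± 0.944% and 69.6 ± 5.65% (SD, n = 3), without overlap, and the part of this in the 2 calls was not tested. Relapse-free monocytes, from other batches, held 120 to 291 CPM of Rtp4.

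In the other lineages tested in Pre-MET lung, edgeR and DESeq2 called 0 members. Macrophages gave no Pre-MET sum of at least 10 cells and were not tested. T cells gave 15 tested with 3 at an unadjusted p below 0.05 and 1.74% of all genes called, with Rtp4 at 0.95 ± 0.54 (adjusted p = 0.425), Zbp1 at -1.34 ± 0.61 (0.295) and Bst2 at -0.03 ± 0.57 (0.988). Neutrophils gave 8 tested with 0 at an unadjusted p below 0.05 (1.06% of all genes called), with Rtp4 at -0.10 ± 0.33. NK cells gave 5 with 1 (Parp14 at -3.61 ± 1.18, adjusted p = 0.375), B cells 1 with 0 and DCs 2 with 0, and 0% of all genes was called in each, with Bst2 at -0.47 ± 0.84 in DCs. At an unadjusted p below 0.05 stood 16.1% of all genes in T cells and 9.81% in neutrophils. The share was 8.68% in NK cells, 9.77% in B cells and 6.34% in DCs. In NK cells the summed CPM was 1030 to 1237 in the 3 Pre-MET mice and 1653 to 1981 in the 3 control mice, without overlap. In T cells it was 2112 to 2169 and 1812 to 2443. The neutrophils of control and Pre-MET lung differed in makeup. Neut_Ptgs2 cells were 80.2 and 33.0% by the mean, Neut_Ifit3 cells 2.78 and 31.05% and Neut_Lcn2 cells 15.1 and 34.5%. The part of this makeup in the neutrophil values was not tested. The difference between monocytes and T cells gave 0 of 25 by edgeR, with 3 at an unadjusted p below 0.05 and 0.124% of all genes called, and 1, Rtp4, by DESeq2. This test and the next had no mouse block. Sums of different lineages from the same mouse entered as separate samples, and the p values rest on that. By edgeR Rtp4 was at -2.10 ± 0.59 (adjusted p = 0.234), Irf7 at -1.02 ± 0.86, Bst2 at -0.87 ± 0.71 and Zbp1 at 1.07 ± 0.62. Neutrophils against T cells gave 0 of 18 by either tool, 0 unadjusted, and 0% of all genes, with Isg15 at 3.21 ± 1.79, Zbp1 at 1.97 ± 1.16, Rtp4 at -0.68 ± 0.61 and Irf7 at -2.12 ± 1.28. An unadjusted p below 0.05 was found for 10.1% of all genes with monocytes and 7.79% with neutrophils.

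The third comparison set the metastasis core against the invasive margin of the same mouse. No lineage tested gave a call by edgeR or DESeq2. Macrophages, DCs and B cells had too few mice with sums of both regions and were not tested. In monocytes of 5 mice 31 members were tested, 28 with a positive estimate and 3 at an unadjusted p below 0.05, beside 3.22% of all genes called. Isg15 was at 0.95 ± 0.41 (adjusted p = 0.274), Bst2 at 0.55 ± 0.32 (0.485), Irf7 at 0.47 ± 0.39 (0.672), Zbp1 at 0.42 ± 0.26 (0.533) and Rtp4 at 0.35 ± 0.33 (0.734). The margin of mouse 36 held 13690 CPM of the members, the highest of 6 margins, and without it 3 members, Isg15, Isg20 and Rsad2, were called higher in the core. That fit was chosen after the data were seen, and its share of all genes called was not counted. The makeup of the monocytes differed, with Mon_Thbs1 cells at 11.7 ± 12.1% in margins (SD, n = 6) and 43.7 ± 23.8% in cores (n = 13) and Mon_Fn1 cells at 60.03 ± 25.95% and 32.6 ± 15.3%, and its part was not tested. In T cells of 5 mice 22 members were tested with 2 at an unadjusted p below 0.05 (0.0959% of all genes called), with Isg20 at 1.13 ± 0.35 (adjusted p = 0.452), Isg15 at 0.18 ± 0.58, Zbp1 at 0.27 ± 0.36, Bst2 at 0.23 ± 0.35, Rtp4 at 0.21 ± 0.38 and Irf7 at 0.05 ± 0.45 (adjusted p = 0.999 for each of these 5). NK cells of 4 mice gave 15 tested with 1 (0% of all genes), which was Isg20 at 3.90 ± 1.19 (adjusted p = 0.764), beside Bst2 at 0.86 ± 0.76, Zbp1 at -0.32 ± 0.80 and Irf7 at -0.58 ± 0.76 (adjusted p = 0.995 for each). Neutrophils of 4 mice gave 10 tested with 0 (0.732% of all genes), with Irf7 at 0.86 ± 0.84 (adjusted p = 0.78), Rtp4 at 0.31 ± 0.38 (0.823) and Isg15 at -0.14 ± 0.87 (0.977). At an unadjusted p below 0.05 stood 14.2% of all genes in monocytes, 4.64% in T cells, 4.52% in NK cells and 8.05% in neutrophils.

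Within the core, mice differed from each other, and lineages of 1 core tended to be high together. The monocyte sums ran from 3379 CPM in mouse 26 to 16752 CPM in mouse 25, and the T cell sums from 2042 CPM in mouse 27 to 8265 CPM in mouse 28. Across 13 cores, log2 summed CPM of monocytes and T cells had a Pearson r of 0.798 (permutation p = 0.0012, adjusted p = 0.0108 over 9 relations) and a Spearman rho of 0.654 (permutation p = 0.0178, adjusted p = 0.080). Without mice 25 and 26, farthest from the monocyte median, r was 0.756, and within the 6 mice of the largest batch 0.825. In each pair below, the 2 mice left out were those farthest from the median of the lineage named first. Mice far out in the other lineage alone were kept. Over the 5 cores of that batch, r was 0.818 for macrophages and T cells, 0.866 for macrophages and monocytes, 0.873 for monocytes and NK cells and 0.691 for NK cells and T cells, given without a test. Macrophages and T cells had r = 0.779 over 10 cores (adjusted permutation p = 0.0189; 0.830 without 2 mice; rho 0.782, adjusted 0.080), macrophages and monocytes r = 0.803 (adjusted 0.0209; 0.586 without 2 mice; rho 0.673, adjusted 0.0858), and monocytes and NK cells r = 0.71 over 11 cores (adjusted 0.0385; 0.555 without 2 mice; rho 0.618, adjusted 0.0901). NK cells and T cells had r = 0.614 (adjusted 0.0836; 0.467 without 2 mice; rho 0.673, adjusted 0.0827). No Spearman adjusted p was below 0.05. In distal normal lung of 13 mice monocytes and T cells had r = 0.356 (adjusted 0.277; rho 0.429, adjusted 0.219; 0.404 without 2 mice; 0.406 in the batch) and in metastasis sections r = 0.347 (adjusted 0.277; rho 0.352, adjusted 0.267; 0.293 without 2 mice; 0.234 in 5 mice of the batch), while DCs had r = 0.469 with monocytes and 0.174 with T cells in 10 metastases (adjusted 0.262 and 0.636; rho 0.467 and 0.212; 0.462 and -0.48 without 2 mice). The difference between tissues was not tested. Lineages of 1 core share plates and batch, and monocyte markers in the T cell sums of cores ran from 526 to 2586 CPM, and the part of either in these relations was not tested.

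**Figure D5:**
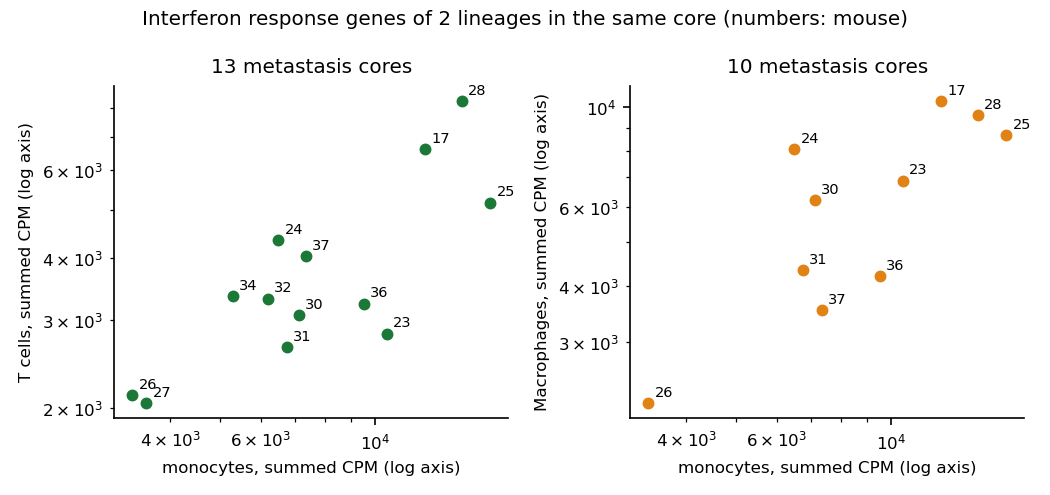
Summed CPM of the 34 genes in T cells (left) and macrophages (right) against monocytes of the same metastasis core (both axes log scale); each point is 1 mouse, with its number. Cores 17, 25 and 28 are high and core 26 low in all 3 lineages (r = 0.798 left, 0.803 right).

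The fourth comparison set primary tumors (4 mice) against metastasis cores. Tumors and lungs were dissociated with different programs, core cells were sorted as GFP+ cells, and a sequencing batch was shared by few samples. These differences and that of tissue cannot be told apart. By edgeR no member was called in any of the 6 lineages tested. T cells came nearest, with 19 members tested, 18 positive estimates and 5 at an unadjusted p below 0.05, beside 0.592% of all genes called. Of all genes, 15.9% had an unadjusted p below 0.05. Isg15 in T cells was at 184, 269, 226 and 368 CPM in the tumors of mice 8, 9, 10 and 38, and from 0 to 426 CPM with a median of 105 in the 13 cores, which overlapped. Its log2 fold change was 1.38 ± 0.43 (adjusted p = 0.0805; DESeq2 0.0357). Trim30a, a ubiquitin ligase, was at 1.36 ± 0.39 (adjusted p = 0.0605; DESeq2 0.0310), and DESeq2 called these 2. Irf7 was at 1.11 ± 0.39 (adjusted p = 0.124), Bst2 at 0.68 ± 0.37 (0.375), Rtp4 at 0.64 ± 0.48 (0.599) and Zbp1 at 0.40 ± 0.37 (0.703).

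The other lineages of the primary tumor gave 0 calls by edgeR. DCs gave 17 tested and 4 at an unadjusted p below 0.05 (0.555% of all genes called), and DESeq2 called Isg15 higher, at 1.59 ± 0.50 in edgeR, and Isg20 lower, at -1.56 ± 0.52. By the mean, DC_migDC cells were 28.4% of DCs in tumors and 10.4% in cores, DC_cDC1 cells 5.5 and 18.6%. DC_cDC2 cells were 55.0 and 58.6%, and the part of this makeup was not tested. Neutrophils of 2 tumors gave 12 tested and 2 at an unadjusted p below 0.05 (0% of all genes called), and DESeq2 called Isg15, at 2.76 ± 0.66 in edgeR. Macrophages gave 28 with 1 (4.53% of all genes called), monocytes 30 with 1 (1.47%) and NK cells 5 with 1 (0.187%), with 0 by DESeq2. Among monocytes, Mon_MHC-II cells were 44.6% in tumors and 11.8% in cores by the mean, Mon_Fn1 cells 10.9 and 32.6%, and Mon_Thbs1 cells 37.8 and 43.7%. The part of this makeup in the monocyte estimates was not tested. At an unadjusted p below 0.05 stood 13.6% of all genes in DCs and 14.5% in neutrophils. The share was 16.3% in macrophages, 12.2% in monocytes and 10.3% in NK cells. Estimates of the members had mixed signs, with 8 positive and 9 negative in DCs, 17 and 11 in macrophages, 22 and 8 in monocytes and 10 and 2 in neutrophils. Isg15 was at 1.02 ± 0.46 in macrophages (adjusted p = 0.248) and 1.05 ± 0.41 in monocytes (0.223). Irf7 was at 0.04 ± 0.36 in DCs, 0.36 ± 0.51 in macrophages, 0.73 ± 0.42 in monocytes, 0.99 ± 0.88 in NK cells and 2.08 ± 0.67 in neutrophils (adjusted p = 0.176 in neutrophils and 0.543 or more in the others). Zbp1 was at -1.15 ± 0.50 in DCs, 0.42 ± 0.40 in macrophages and -0.24 ± 0.32 in monocytes (adjusted p = 0.303 or more). Rtp4 was at -0.40 ± 0.56 in DCs, -0.44 ± 0.44 in macrophages, 0.22 ± 0.46 in monocytes and 0.10 ± 0.55 in neutrophils (0.693 or more), and Bst2 at 0.03 ± 0.42, 0.42 ± 0.35 and 0.29 ± 0.38 in DCs, macrophages and monocytes (0.614 or more).

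The members' level in T cells of the primary tumor stood above that of control lung in all samples, at 4862 to 6701 CPM and 1812 to 2443 CPM. T_Treg cells were 21.5 ± 8.64% of T cells in the tumors (SD, n = 4), 6.32 ± 4.29% in the cores (n = 13) and 0.142 ± 0.247% in control lung (n = 3), and T_CD4_Lef1 cells 31.1, 22.2 and 54.1%, and the part of this makeup in the T cell values was not tested. Isg15 was at 9.7, 17.3 and 4.1 CPM in the control T cells and Irf7 at 9.7, 17.3 and 48.8 CPM, against 228 to 408 CPM of Irf7 in the tumors. Among T_CD8_Gzmk cells the summed CPM was 9937 to 11704 in 3 tumors and 1873 to 2197 in control lung, whereas in T_CD4_Lef1 cells it was 2833 to 4588 and 1883 to 2812. Tumor T cells were also read more deeply, with a median of 1243 to 2412 UMIs per cell against 830.5 to 1068 in control. With each cell thinned to 500 UMIs, 36.8 to 51.4% of tumor T cells held UMIs of at least 2 members and 10.6 to 17.5% of control T cells (52.9 to 81.1% and 21.8 to 28.0% unthinned). Control and tumor plates were sequenced apart, so that batch and tissue cannot be told apart here.

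The last comparison set relapse-free against control lung, and no lineage gave a call by edgeR or DESeq2. Monocytes gave 30 tested with 3 at an unadjusted p below 0.05 (0.0819% of all genes called), with Isg15 at 0.36 ± 0.61, Irf7 at 0.20 ± 0.43, Bst2 at 0.20 ± 0.39, Zbp1 at -0.43 ± 0.34 and Rtp4 at -0.71 ± 0.33 (adjusted p = 0.716). T cells gave 19 with 2 (0% of all genes), of which Irf7 was at 1.36 ± 0.63 (adjusted p = 0.986) and Herc6 at -1.13 ± 0.45 (0.863), while Bst2 was at 0.16 ± 0.44, Rtp4 at -0.20 ± 0.44 and Zbp1 at -0.44 ± 0.52 (0.999 for each). Neutrophils gave 15 with 1 (0.0577%), NK cells 9 with 2 (0%), DCs 4 with 0 (0%), B cells 3 with 0 (0%) and macrophages 2 with 0 (0.0407%). In neutrophils Isg15 was at -0.14 ± 0.78, Irf7 at -0.15 ± 0.74, Rtp4 at -0.31 ± 0.47 and Zbp1 at -1.05 ± 0.95 (adjusted p = 0.834 or more), in NK cells Zbp1 was at -0.99 ± 0.62 (0.998) and in DCs Bst2 at -0.63 ± 0.59 (0.968). At an unadjusted p below 0.05 stood 6.72% of all genes in monocytes, 5.03% in T cells and 8.42% in neutrophils. The share was 4.48% in NK cells, 5.64% in DCs, 3.76% in B cells and 4.88% in macrophages. Macrophage summed CPM was 691 to 1010 in control and 689 to 1387 in relapse-free lung.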

How the data were processed

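Single cells of 148 plates were sequenced from their 3' ends. The authors deposited raw counts, the number of UMIs per gene and well, one table per plate, after they had mapped reads to the mouse genome with HISAT, discarded reads without a unique position and filtered UMI errors; the submitters' processing notes name bcl2fastq 2.15.0.4 and mm10. The cell labels are the authors' deposited annotation, which left out wells below 500 UMIs. The annotation labels 24020 wells; 595 labelled erythrocytes, outliers or tumor were left out. No doublet caller was run on these sorted wells. The 92 spike-in rows, which held 0 UMIs, were left out, and 0 columns lacked a sample.

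Counts were summed per mouse, tissue and lineage or subpopulation with at least 10 cells. Groups came from the sample labels. Each comparison was fitted over all genes that passed filterByExpr with edgeR 4.0.16 (R 4.3.3; TMM scaling, quasi-likelihood test, two-sided), with mouse as a block where both tissues came from the same mouse, and Benjamini-Hochberg adjustment over all genes tested at a threshold of 0.05. The pairs are the same animal; deviations of paired monocyte sums correlated with a median r of 0.13 between metastasis and distal normal lung and 0.25 between core and margin. Sums held 7326 to 1125282 UMIs, and shares and levels carry counting error accordingly. The SE of a log2 fold change was derived from the edgeR test, as its absolute value divided by the square root of the F statistic. Correlations used 100000 permutations, two-sided (Python 3.11.15, scipy 1.17.1). A share of cells was also computed after thinning to 500 UMIs.

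The genes named in each fit were up to 6 called members with the smallest p, and Isg15, Irf7, Bst2, Rtp4 and Zbp1 wherever they were tested. Other named genes, such as Socs3, Irf5, Samhd1, Sp100, Trim30a and Herc6, and members named for an unadjusted p, were chosen after their values were seen. Members and lists were chosen with earlier results of these data known. Alternatives were DESeq2 1.42.0, its size factors, no filter on low counts, cells of at least 1000 UMIs, sums of at least 20 cells, no block, a pseudocount of 10 CPM, the log2 of summed CPM, and each mouse left out. The scripts' tests were tested on simulated data. Results for 1 withheld gene of the pathway list are not reported here.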

Additional observations from a re-analysis of the deposited data

Results flagged for a closer look

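Summed CPM and the module score were each examined in every lineage and tissue with 4 to 10 mice, 58 sets of values in all, and 5 held a mouse far from the others, where chance gives about 5%, or 1 in 20; both measures come from the same mice. In macrophages, the metastasis of mouse 37 held the highest of 9 summed levels of the 34 genes, 16171 CPM, and relapse-free mouse 7, sorted through several GFP gates, the highest of 4, 1387 CPM. In monocytes, the invasive margin of mouse 36 was the highest of 6, at 13690 CPM, and relapse-free mouse 29 had the lowest module score of 6, at 4.19. In neutrophils, the metastasis of mouse 26 was the lowest of 9, at 2644 CPM.

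Wells labelled erythrocytes, which no comparison used, held UMIs of the members. In mouse 17 they reached 8972 CPM in distal normal lung (82 wells), 6001 CPM in the invasive margin (88 wells) and 6818 CPM in the core (47 wells), and in relapse-free mouse 18 they reached 2606 CPM (64 wells). The 7 such wells of control lung held 1397 CPM.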

How the results depend on the processing

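No log2 fold change of a called member reversed under any alternative run, and leaving out mice kept 131 of 163 calls of single members. Of the counts of called members, those with DESeq2's size factors (28) and with sums of at least 20 cells (24) stayed within 1.5 times. Leaving out each mouse gave 6 to 13 in metastasis monocytes, 2 to 5 in macrophages, 0 to 2 in Pre-MET monocytes and 0 to 3 in core monocytes (3 without mouse 36). Without the replicate block, which pairs tissues of 1 mouse, 2 members were called in monocytes and 2 in macrophages; fewer genes passed the filter there. With cells of at least 1000 UMIs the counts were 0 in metastasis macrophages, 0 in Pre-MET monocytes and 1 in Pre-MET neutrophils. DESeq2 lost Bst2 in metastasis monocytes and Rtp4 in metastasis macrophages. It called 1 in the Pre-MET difference between monocytes and T cells, and in the primary tumor 2 in DCs, 1 in neutrophils and 2 in T cells. Without a filter 1 was called in primary tumor monocytes and 1 in T cells. Score differences shrank with a pseudocount of 10 CPM and with the log2 of summed CPM, to -0.43 and -0.12 in Pre-MET B cells, -0.43 and -0.17 in DCs, -0.80 and -0.66 in NK cells, and 1.97 and 1.596 in metastasis macrophages. In Pre-MET neutrophils they were 0.39 and, reversed, -0.044. The log2 of summed CPM gave -0.007 in Pre-MET T cells (-1.01 with cells of at least 1000 UMIs), 0.72 in primary tumor T cells, and reversed DCs of the primary tumor to -0.002 and relapse-free neutrophils to -0.55. Causes were not tested beyond the number of genes given. Shares of all genes called were counted for the edgeR fits of the comparisons only, not for DESeq2 or the other alternatives. Of 71 estimates of named genes that were not called, 27 changed sign in at least 1 alternative.

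No paired analysis was possible because no mouse holds both groups for Pre-MET against control, primary tumor against core, or relapse-free against control. Leaving out mice of paired comparisons, the same-batch fits and the fits without mouse 17 were chosen after seeing the data. Rows with joined gene names gave no value, since none held a second member. Sparse sums limited the tests to 4 members in T cells between metastasis and distal normal lung, and 2 in macrophages between relapse-free and control lung.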

Other observations

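Wells labelled tumor were found mainly in primary tumors, where 71 wells held 2964 CPM of the 34 genes. The 592 wells without a cell had a median of 8 UMIs, and 38 of their 8490 UMIs came from the members.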
